A study of Homo sapiens with 4 samples.

Results

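DEAD- and DEAH-box helicases are the large family of enzymes that remodel RNA, and 47 of their genes were followed here in Jurkat, an established cell line grown from a human T-cell acute lymphoblastic leukaemia. The members were taken by name and biotype: protein-coding genes whose symbol starts with DDX or DHX and a number, with DDX10, DDX18, DDX21, DDX58 and DDX60 left out. They made up 31 DDX and 16 DHX genes of the 15429 protein-coding genes in a table of 25122. Some genes of the family, among them DDX39B, DDX47 and DDX53, were not analysed here. The cells carried either a short hairpin RNA against BDH1 (shBDH1, 2 libraries) or a control hairpin (shcontrol, 2 libraries), and the labels give both groups as wild type. BDH1 encodes the mitochondrial enzyme that interconverts acetoacetate and 3-hydroxybutyrate, and the study's design text concerns MYC downstream of it. That text speaks of restoring MYC in cells depleted of BDH1, but no label of these 4 libraries mentions MYC. MYC itself had 7453 and 7368 normalized counts in shBDH1, against 14683 and 14804 in shcontrol, at -0.99 on the log2 scale (SE 0.04, limma adjusted p = 2.7e-18), so its RNA was not at the shcontrol level in these shBDH1 libraries. Nothing in the labels ties the libraries of a group to separate cultures. The p-values thus reflect the variation from library to library alone, which limma largely pools over genes, and that variation may be purely technical.

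These enzymes use ATP to open short RNA duplexes or to strip proteins from RNA. The names come from a conserved stretch of their core, written in the amino acid code as Asp-Glu-Ala-Asp in DEAD-box and Asp-Glu-Ala-His in DEAH-box proteins. DEAD-box enzymes prise helices apart locally, while DEAH-box enzymes move along one strand and often need a partner with a G-patch motif to become active. Different members drive the rearrangements of the spliceosome, the assembly of ribosomes in the nucleolus, the export of mRNA, the start of translation and the decay of mRNA. Growing leukaemia cells need all of these steps. Membership here goes by name, which need not match the family: DDX11, for one, unwinds DNA and belongs to another helicase family.

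Library sizes differed little, at 29453383 and 28777374 reads in genes for shBDH1 and 28681511 and 28797402 for shcontrol. BDH1 itself had 1221 and 1412 normalized counts in shBDH1, against 1725 and 1911 in shcontrol. That is a change of -0.47 on the log2 scale (SE 0.08, adjusted p = 1.5e-05 by limma). Normalized counts are gene reads that the authors divided by 1 size factor per library. All 8 T cell markers looked up were present, with summed normalized counts of 45915 and 45933 in shBDH1 and 37205 and 37423 in shcontrol. They did not move together: 5 rose and 1 fell (limma adjusted p under 0.05), the latter being CD3G at -0.27 on the log2 scale. Markers of other cell types stayed far below the T cell sum. The 3 B cell markers found summed to 686 and 666 in shBDH1 and 220 and 220 in shcontrol, of which CD79A gave 600 and 601 in shBDH1 and 125 and 144 in shcontrol. The 4 NK markers summed to 241 and 190 in shBDH1 and 89.3 and 82.8 in shcontrol. Of these, NKG7 and NCAM1 rose, GNLY did not pass the test and KLRD1 was too low for it. The 3 myeloid markers found summed to between 46.3 and 66.8 in all 4 libraries, and LYZ was at 0 in 3 of them. The 2 epithelial and fibroblast markers found, COL1A1 and KRT8, summed to 872 and 762 in shBDH1 and 499 and 533 in shcontrol. No erythroid or megakaryocyte marker was analysed here. The part of these markers in the helicase results was not tested.

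More helicase genes were lower than higher in shBDH1, and no change reached 2-fold. Of the 45 members that reached the mean of 10 normalized counts needed for the test, 19 fell and 4 rose, and 22 did not pass (limma on log2(value + 1), Benjamini-Hochberg adjusted p under 0.05 over all genes tested). Among all 19301 genes tested, 20.8% fell and 20.3% rose, against 42.2% and 8.89% of the helicases tested. Well-expressed genes fell more often in general, so a closer comparison is with the 6664 protein-coding genes at a mean of 1000 or more, of which 34.6% fell and 26.3% rose. Of the 37 helicases at that level, 40.5% fell and 5.41% rose. The share that fell was therefore near that of other well-expressed genes, and the share that rose was smaller; the difference in shares was not tested. The median log2 fold change was -0.12 over the helicases tested, -0.04 over the well-expressed protein-coding genes and -0.01 over all genes tested. A 2-fold change, which no helicase reached, was passed by 9.35% of all genes tested, low genes included. The helicases' log2 fold changes ran from -0.65 to 0.43. Those of the well-expressed protein-coding genes ran from -2.15 to 2.11, but the share of these genes past 2-fold was not counted.

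Both shBDH1 libraries lay below both shcontrol libraries for 29 of the 45 helicases and above them for 6. Over all genes tested these shares were 34.9% and 34.1%. At a mean of 1000 or more, 25 of 37 helicases lay below and 4 above. Of the 6664 protein-coding genes at that level, 3068 lay below and 2355 above, and the difference was not tested. Together the 47 genes took 0.568% and 0.586% of the reads in shBDH1, against 0.594% and 0.599% in shcontrol. A lower level in bulk RNA can come from fewer cells that express a gene or from less RNA per cell, which cannot be told apart. With upper-quartile factors in edgeR, 6 members were higher and 15 lower. All genes tested shifted upwards in that setting, with 4422 higher and 3331 lower, against 3910 and 4020 in the main fit.

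**Figure D1:**
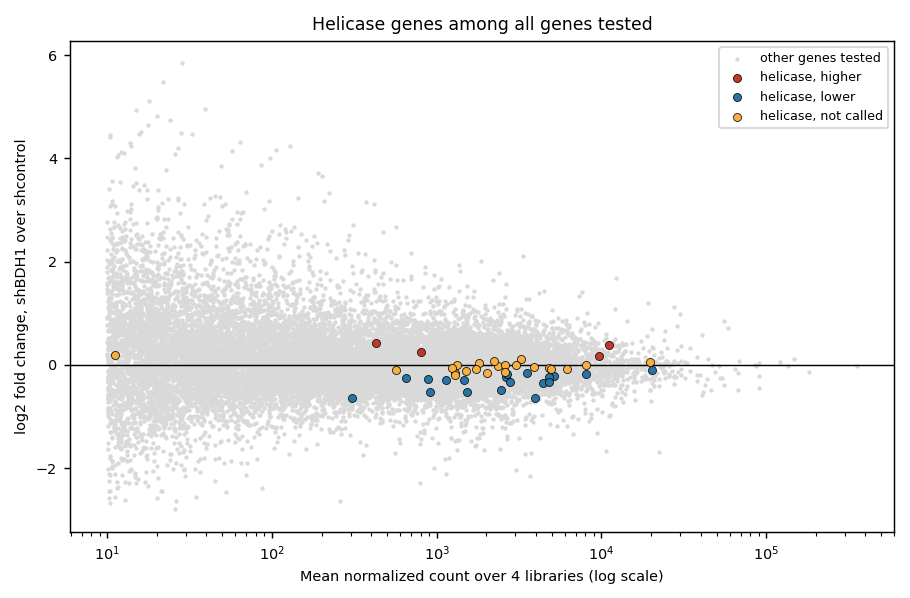
Log2 fold change of shBDH1 over shcontrol against the mean normalized count over the 4 libraries (log axis), with 1 point per gene tested. Helicase genes are the outlined points; they lie between -0.65 and 0.43, mostly below 0, while other genes spread much more widely.

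**Figure D2:**
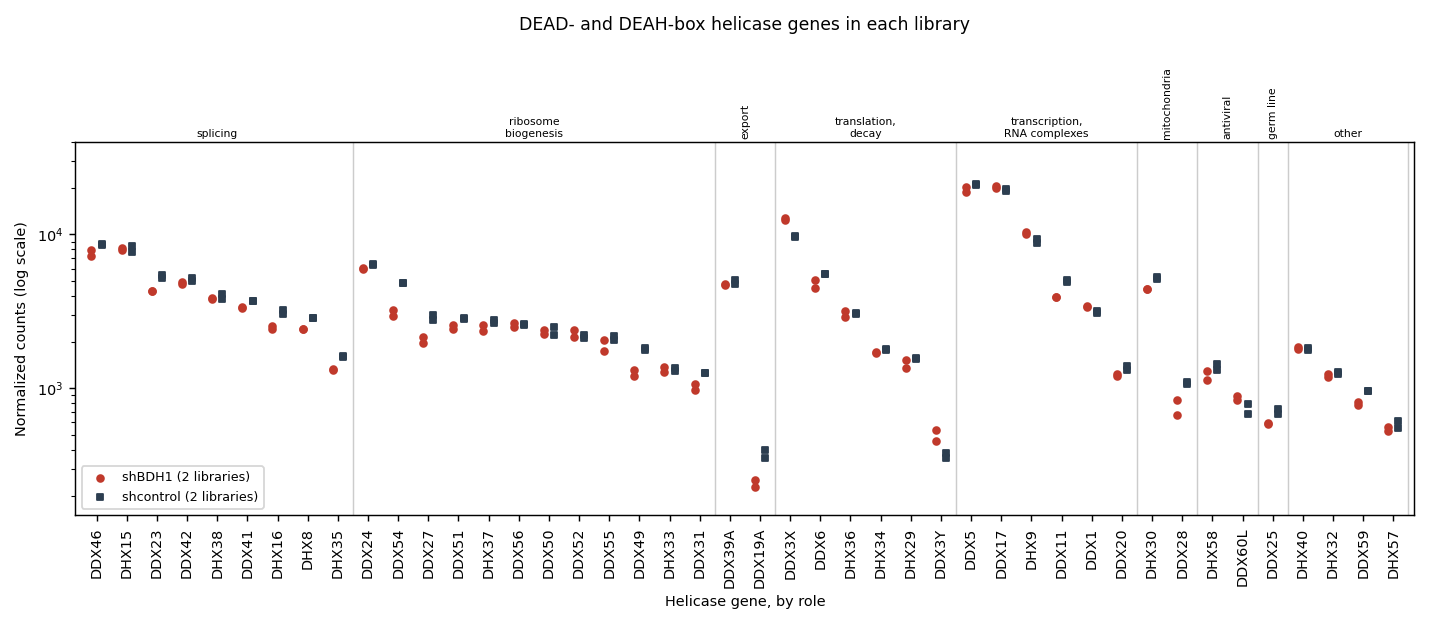
Normalized counts (log axis) of 44 helicase genes in each library, grouped by role, with shBDH1 as circles to the left of shcontrol as squares. DDX4, DDX19B and DDX43 are below the axis and are not drawn. DDX5 and DDX17 have the highest counts, and DDX54 and DDX19A show the clearest gaps downwards.

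The helicases that drive splicing fell or stayed level, and none rose. Of 9 measured members that act in the spliceosome, 6 fell and 3 did not pass, with a median log2 fold change of -0.18. That is 66.7% lower, beside 20.8% of all genes tested and 34.6% of well-expressed protein-coding genes; the difference in shares was not tested. They act in sequence: DDX46 and DDX42 at the branch site with the U2 particle, DDX23 when the U4/U6.U5 particle joins, DHX16 at the first catalytic step, DHX38 between the steps and DHX8 at the release of the spliced mRNA. DHX15 then takes the spliceosome apart.

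DHX16, the human counterpart of yeast Prp2, had 2418 and 2524 normalized counts in shBDH1, against 3225 and 3021 in shcontrol. DDX23, the counterpart of Prp28 in the U5 particle, had 4291 and 4267 in shBDH1, against 5250 and 5474 in shcontrol. Both genes had clear gaps between the groups, with log2 fold changes of -0.34 for DHX16 (SE 0.06, limma adjusted p = 2.5e-05) and -0.33 for DDX23 (SE 0.05, limma adjusted p = 2.2e-06). DHX35, a protein of catalytically active spliceosomes, had 1315 and 1336 in shBDH1 and 1600 and 1626 in shcontrol. Its libraries agreed closely within each group, and its change on the log2 scale was -0.28 (SE 0.07, limma adjusted p = 0.002). DHX8 fell by 0.23 on the log2 scale (limma adjusted p = 0.0017), with 2432 and 2444 in shBDH1 and 2858 and 2861 in shcontrol.

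DDX46, the counterpart of Prp5, had 7251 and 7932 in shBDH1, against 8534 and 8616 in shcontrol. The shBDH1 libraries differed more from each other than the shcontrol libraries did, and the difference of -0.18 on the log2 scale (SE 0.04, limma adjusted p = 0.0016) shrank to -0.11 without shBDH1 replicate 1. DDX41, a spliceosomal helicase in which inherited variants predispose to myeloid leukaemia, was the weakest of the 6 that fell, at -0.15 (SE 0.05, limma adjusted p = 0.02). Its adjusted p was 0.066 without shBDH1 replicate 1, 0.098 without shcontrol replicate 1 and 0.11 without shcontrol replicate 2. DHX15 had 7880 and 8118 in shBDH1 and 7730 and 8371 in shcontrol, groups that overlap. The 95% interval of its log2 fold change ran from -0.10 to 0.08. DHX38 (-0.03) and DDX42 (-0.07) also did not pass the test.

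**Figure D3:**
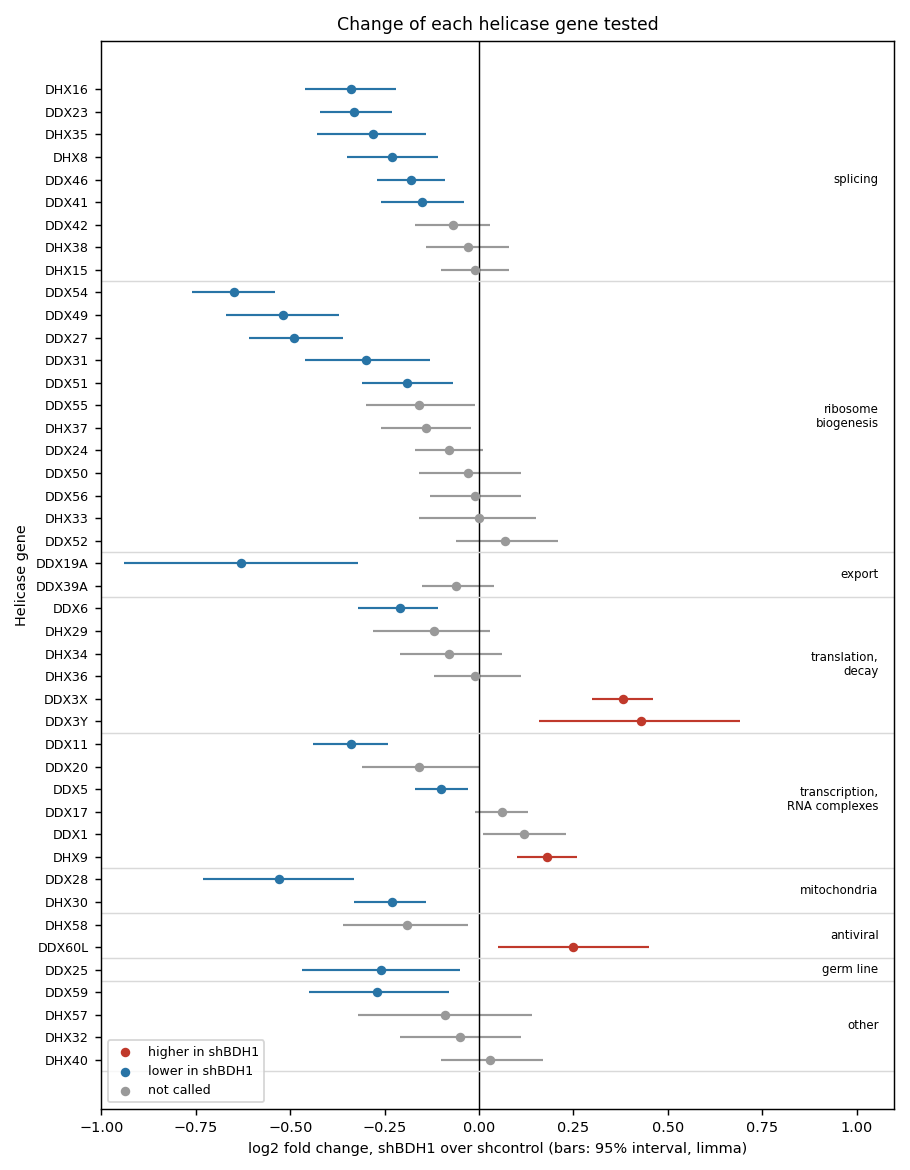
Log2 fold change of shBDH1 over shcontrol with its 95% interval from limma for 44 helicase genes tested, ordered by role from top to bottom; DDX4, whose interval runs from -1.64 to 2.01, is not drawn. Colour marks genes that were called higher, called lower or not called. All points of the splicing group lie at or below 0, and DDX3X and DDX3Y lie farthest to the right.

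Among the 12 measured members counted under ribosome biogenesis, 5 fell and none rose, and the group was uneven. Helicases left out by the naming rule, among them DDX10, DDX18 and DDX21, are not in this count. The share that fell, 41.7%, was near the 34.6% of well-expressed protein-coding genes. The counterparts of these proteins in yeast unwind snoRNA and pre-rRNA while the subunits form in the nucleolus. The falls were largest for DDX54, DDX49 and DDX27 and smaller for DDX31 and DDX51, while 4 members had overlapping groups. The group's median log2 fold change was -0.15.

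DDX54, a nucleolar helicase of the large subunit (Dbp10 in yeast), showed the largest fall of all members. It had 2944 and 3224 normalized counts in shBDH1, against 4803 and 4857 in shcontrol. That is a log2 fold change of -0.65 (SE 0.05, 95% interval -0.76 to -0.54, limma adjusted p = 5.3e-11). DDX54 (ENSG00000123064) lies on the minus strand of chromosome 12 from 113157174 to 113185479 (hg38). CFAP73 on the opposite strand shares 501 exon bases with it, 9.9% of its exons. The level of CFAP73 was 592 in shBDH1 and 944 in shcontrol on average, a log2 fold change of -0.66, and since the strand setting of the counts is not given in the sources used here, reads of the pair may be shared.

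DDX49 (Dbp8 in yeast, small subunit) had 1206 and 1311 in shBDH1, against 1824 and 1783 in shcontrol, which is -0.52 on the log2 scale (SE 0.07, limma adjusted p = 1e-06). DDX27 (Drs1 in yeast, large subunit) had 1977 and 2141 in shBDH1, against 2789 and 2980 in shcontrol, which is -0.49 on the log2 scale (SE 0.06, limma adjusted p = 2.4e-07). For each gene both shBDH1 libraries lay well below both shcontrol libraries. DDX49 (ENSG00000105671) spans 18919675 to 18928633 on chromosome 19, and DDX27 (ENSG00000124228) spans 49219295 to 49244077 on chromosome 20, both on the plus strand.

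DDX31 (Dbp7 in yeast) had 982 and 1073 in shBDH1, against 1258 and 1262 in shcontrol, at -0.30 (SE 0.08, limma adjusted p = 0.0041), or 0.06 without shBDH1 replicate 1. GTF3C4, which shares 367 exon bases with it on the opposite strand, moved the other way, at 0.38. DDX51 (Dbp6 in yeast) fell by 0.19 on the log2 scale (limma adjusted p = 0.011), with an adjusted p of 0.093 without shBDH1 replicate 2 and 0.08 without shcontrol replicate 1. DDX24 (Mak5 in yeast) had 5979 and 6051 in shBDH1 and 6400 and 6339 in shcontrol. Its groups did not overlap, yet its log2 fold change of -0.08 did not pass the test (limma adjusted p = 0.13). DDX55 (-0.16, limma adjusted p = 0.076) and DHX37 (-0.14, limma adjusted p = 0.066) missed the threshold more narrowly. Both moved most with the shBDH1 libraries and less with those of shcontrol. DDX55 was at -0.12 without shcontrol replicate 1 and -0.20 without shcontrol replicate 2, and DHX37 at -0.11 and -0.17. Without shBDH1 replicate 2, DDX55 was at -0.27 (adjusted p = 0.0081) and DHX37 at -0.20 (0.025), and without shBDH1 replicate 1, DDX55 was at -0.04 (0.68) and DHX37 at -0.08 (0.39). EIF2B1 shares 536 exon bases with DDX55 on the opposite strand and had a log2 fold change of -0.27. The remaining 4 were DDX50 at -0.03, DDX56 at -0.01, DHX33 at -0.00 and DDX52 at 0.07, all with overlapping groups.

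Of the export helicases, DDX19A fell and DDX39A did not change detectably. DDX19A is a close paralog of DDX19B, the helicase that strips export proteins from mRNA on the cytoplasmic face of the nuclear pore. DDX19A had 254 and 228 normalized counts in shBDH1, against 395 and 353 in shcontrol, a log2 fold change of -0.63 (SE 0.15, 95% interval -0.94 to -0.32, limma adjusted p = 0.0012). DDX19B had 0.983 and 2.01 in shBDH1 and 4.11 and 2.04 in shcontrol, too few for the test. These paralogs lie side by side on chromosome 16, and the gene AC012184.2 shares 1876 exon bases with DDX19A and 711 with DDX19B on the same strand, so the split of reads among them is uncertain. AC012184.2 averaged 73.5 in shBDH1 and 50.2 in shcontrol and did not pass the test. The antisense gene AC012184.4 shares 563 exon bases with DDX19A, 7.1% of its exons. It averaged 1258 in shBDH1 and 1440 in shcontrol and fell by 0.20 on the log2 scale (limma adjusted p = 0.045).

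DDX39A works with the TREX complex, which loads export factors onto new mRNA. It had 4681 and 4757 in shBDH1, against 4779 and 5031 in shcontrol. The groups did not overlap, but the difference was small, at -0.06 with a 95% interval from -0.15 to 0.04.

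Both copies of DDX3 rose, and they were the largest rises among the members. DDX3X helps ribosomes start on mRNAs with structured leaders, and DDX3Y is its counterpart on the Y chromosome. DDX3X had 12500 and 12798 normalized counts in shBDH1, against 9573 and 9843 in shcontrol, a log2 fold change of 0.38 (SE 0.04, 95% interval 0.30 to 0.46, limma adjusted p = 2e-09). DDX3Y had 452 and 537 in shBDH1, against 382 and 351 in shcontrol, which is 0.43 on the log2 scale (SE 0.13, limma adjusted p = 0.0089). The call of DDX3Y rested on single libraries, with an adjusted p of 0.16 without shBDH1 replicate 2 and 0.059 without shcontrol replicate 2.

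Per kilobase of annotated exon, the ratio of DDX3X to DDX3Y was 9.98 and 8.60 in shBDH1 and 9.05 and 10.1 in shcontrol, so the groups overlapped. The genes are close in sequence and may exchange reads. DDX3P1, a processed pseudogene of DDX3 named after its values were seen, had 25.6 and 20.1 in shBDH1 and 0 and 1.02 in shcontrol. DDX3X (ENSG00000215301) lies on chromosome X from 41333284 to 41364472.

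DDX6, which links the CCR4-NOT deadenylase to decapping and holds P-bodies together, fell. It had 5048 and 4502 in shBDH1, against 5520 and 5517 in shcontrol, which is -0.21 on the log2 scale (SE 0.05, limma adjusted p = 0.0013). Without shBDH1 replicate 2 the log2 fold change was -0.13 (limma adjusted p = 0.046). The other members of this group did not pass the test: DHX29, which aids scanning through structured leaders, at -0.12, DHX34 of nonsense-mediated decay at -0.08 and DHX36, which unfolds G-quadruplexes, at -0.01.

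DDX5 and DDX17, paralogs that act as transcription coregulators and in splicing and microRNA processing, had the highest levels per kilobase of the family. DDX5 had 19022 and 20377 normalized counts in shBDH1, against 21023 and 21188 in shcontrol, which is -0.10 on the log2 scale (SE 0.03, limma adjusted p = 0.02). DDX17 had 19903 and 20631 in shBDH1, against 19629 and 19252 in shcontrol, at 0.06 (SE 0.03, limma adjusted p = 0.15). Per kilobase of exon, the ratio of DDX5 to DDX17 within a library was 1.29 and 1.34 in shBDH1, against 1.45 and 1.49 in shcontrol, and the groups did not overlap. With 2 libraries against 2, an exact permutation test cannot give a p below 0.33, and the ratio was not tested.

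The call of DDX5 was lost in several settings. Its log2 fold change shrank to -0.05 without shBDH1 replicate 1 (adjusted p = 0.2), but was -0.11 without shcontrol replicate 1 (0.12) and -0.10 without shcontrol replicate 2 (0.17), about as large as with all libraries. The adjusted p was 0.21 with upper-quartile factors in edgeR. DDX17 passed the test in that last setting (0.014) and in edgeR with library totals as the only factors (0.049). Without shBDH1 replicate 1 the log2 fold change of DDX17 was 0.09. CEP95 shares 506 exon bases with DDX5 on the opposite strand and had a log2 fold change of -0.34.

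DHX9, or RNA helicase A, which unwinds long duplexes and binds RNA polymerase II complexes, rose. It had 10446 and 10031 in shBDH1, against 8822 and 9280 in shcontrol, which is 0.18 on the log2 scale (SE 0.04, limma adjusted p = 0.00068). Without shcontrol replicate 1 its adjusted p was 0.051. DDX1 of the tRNA ligase complex lay higher in both shBDH1 libraries but did not pass the test, at 0.12 (limma adjusted p = 0.084). It passed in edgeR with upper-quartile factors (0.16, adjusted p = 0.015) and with library totals as the only factors (0.14, adjusted p = 0.032). DDX20, or Gemin3, of the SMN complex that builds spliceosomal snRNPs, was at -0.16 (limma adjusted p = 0.1).

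DDX11 had 3925 and 3906 in shBDH1, against 5048 and 4894 in shcontrol, which is -0.34 on the log2 scale (SE 0.05, limma adjusted p = 1.2e-06). This DNA helicase supports sister chromatid cohesion. DDX12P, a near-identical pseudogene named after its values were seen, had 2604 and 2577 in shBDH1, against 3012 and 2766 in shcontrol, at -0.16 (limma adjusted p = 0.035). Reads of such copies can be split between them, so the size of the change in DDX11 is uncertain.

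Both helicases that serve mitochondria fell. DDX28, which takes part in assembly of the mitochondrial large ribosomal subunit, had 670 and 837 in shBDH1, against 1095 and 1065 in shcontrol, which is -0.53 on the log2 scale (SE 0.10, limma adjusted p = 6.6e-05). DHX30, a protein of mitochondrial RNA granules, had 4419 and 4438 in shBDH1, against 5121 and 5282 in shcontrol, at -0.23 (SE 0.05, limma adjusted p = 0.00021). The DDX28 libraries of shBDH1 differed from each other but both lay below shcontrol. DDX28 (ENSG00000182810) lies on chromosome 16 from 68021274 to 68023442 and shares 487 exon bases, 22.5% of its exons, with DUS2 on the opposite strand. DUS2 averaged 1357 in shBDH1 and 1788 in shcontrol, at -0.40.

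The 2 antiviral members lay on opposite sides of 0. DDX60L, an interferon-inducible relative of DDX60, had 894 and 846 in shBDH1, against 676 and 791 in shcontrol, which is 0.25 on the log2 scale (SE 0.10, limma adjusted p = 0.042). That call was narrow, with an adjusted p of 0.21 without shBDH1 replicate 1, 0.074 without shBDH1 replicate 2 and 0.41 without shcontrol replicate 1, where the log2 fold change was 0.14. DHX58, or LGP2, a cytoplasmic sensor of viral RNA that tunes the related sensor IFIH1, had 1140 and 1288 in shBDH1, against 1447 and 1325 in shcontrol, at -0.19 (limma adjusted p = 0.058). It was at -0.28 without shBDH1 replicate 2 (adjusted p = 0.024) and at -0.26 without shcontrol replicate 2 (0.037), but at -0.10 without shBDH1 replicate 1 (0.42) and at -0.13 without shcontrol replicate 1 (0.36).

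Of the germ line helicases, DDX25 was clearly detected and the others were near the limit. DDX25, known from testis, had 585 and 593 in shBDH1, against 681 and 730 in shcontrol, at -0.26 (SE 0.10, limma adjusted p = 0.045), and leaving out any of the 4 libraries took its adjusted p to between 0.064 and 0.25. The antisense gene AP000842.2 shares 492 exon bases with it and was at -0.33, with 573 in shBDH1 and 721 in shcontrol on average. DDX4, the germ cell marker known as Vasa, had 10.8 and 9.05 in shBDH1 and 3.08 and 21.5 in shcontrol, too variable to place. DDX43 had 0 and 7.04 in shBDH1 and 1.03 and 1.02 in shcontrol and was not tested.

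Among the 4 members outside these roles, DDX59 fell. It had 783 and 816 in shBDH1, against 956 and 968 in shcontrol, at -0.27 (SE 0.09, limma adjusted p = 0.017). Its adjusted p was 0.09 without shBDH1 replicate 1, 0.059 without shcontrol replicate 1 and 0.081 without shcontrol replicate 2. DHX40 had 1854 and 1809 in shBDH1 and 1823 and 1762 in shcontrol, with overlapping groups and a log2 fold change of 0.03. DHX32 had 1185 and 1237 in shBDH1, against 1273 and 1239 in shcontrol, at -0.05, and DHX57 was at -0.09. Loss of DDX59 function in people disturbs ciliary signalling, while the roles of DHX32, DHX40 and DHX57 are less well known.

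Per kilobase of annotated exon, the members with a mean of at least 10 spanned from 2762 normalized counts for DDX5 to 2.90 for DDX4, averaged over the 4 libraries. DDX17 (1986), DHX9 (1709) and DDX39A (1253) followed DDX5. The level of DDX54 on this scale was 609 in shBDH1 and 954 in shcontrol, and that of DDX3X was 796 in shBDH1 and 611 in shcontrol. Exon lengths were taken from GENCODE 29 and count every annotated exon, so a gene with much annotated exon that these cells do not use reads low.

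Promoters of the helicases were searched for CACGTG, the E-box that MYC binds together with MAX, because the study's design text centres on MYC. The motif is its own reverse complement, so a single search covers both strands. RefSeq windows of 300 bases (GRCh38.p14, 250 bases before the start site and 50 after it) were matched by symbol for 43 of the 47 members, and 9 of them held the motif in at least 1 window. The motif was in 12.19% of the 11292 tested genes with a window and in 7.26% of all 35116 windows. It was found in 5 of the 18 helicases that fell and had a window, in none of the 4 that rose and in 4 of the 19 that did not pass the test. Among all tested genes with a window, 15.1% of those that fell held it, 11.1% of those that rose and 11.3% of those that did not pass. A match describes letters only, and binding was not measured in these data.

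The matches of the 5 helicases that fell are shown to let their surroundings be compared, read 5′ to 3′ along the gene's strand with the motif in capitals. They begin 61 bases before the start site in DDX54, 22 in DDX31, 30 in DDX5, 23 in DDX25, and 184 and 132 in DHX35. DDX31 and DDX5 have 3 start-site windows each and DDX25 has 2, and in each of these genes a single window held the motif.
DDX54, chr12:113185510-113185563, minus strand: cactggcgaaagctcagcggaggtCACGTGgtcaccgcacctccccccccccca
DDX31, chr9:132669976-132670029, minus strand: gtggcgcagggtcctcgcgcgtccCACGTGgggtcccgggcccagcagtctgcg
DDX5, chr17:64506639-64506692, minus strand: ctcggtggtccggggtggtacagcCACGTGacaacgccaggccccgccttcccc
DDX25, chr11:125904461-125904514, plus strand: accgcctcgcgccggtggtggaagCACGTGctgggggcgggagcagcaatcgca
DHX35, chr20:38962136-38962189, plus strand: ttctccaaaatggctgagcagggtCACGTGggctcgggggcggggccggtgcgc
DHX35, chr20:38962188-38962241, plus strand: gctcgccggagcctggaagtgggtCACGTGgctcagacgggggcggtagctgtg
In the DDX54 match and both DHX35 matches, the motif has GT before it and G after it. DDX19A, DDX49, DDX27 and DDX28, whose falls were among the largest, are not in this list. The windows of DDX19A, DDX27 and DDX28 held no match, and DDX49 had no window. DHX32, DHX34, DHX37 and DHX40 held the motif but did not pass the test, and their matches are not shown.

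The helicases work with protein partners, and these were counted in lists written from textbook knowledge with earlier results of these data known. In the exon junction complex and nonsense-mediated decay, 9 of 14 tested genes (64.3%) fell and 1 rose, with a median log2 fold change of -0.19. As a background for this and the next lists, 20.8% of all genes tested fell and 20.3% rose, and among well-expressed protein-coding genes 34.6% fell and 26.3% rose; no list was tested against them. UPF1, the decay helicase, had 5103 and 4783 normalized counts in shBDH1, against 7202 and 7092 in shcontrol, at -0.53 (limma adjusted p = 1.3e-10), and SMG5, RBM8A and CASC3 fell by 0.35, 0.25 and 0.27. Of 15 TREX and export genes, 7 (46.7%) fell and none rose, with a median of -0.17, among them THOC1 at -0.36 and THOC5 at -0.46. No gene of either list changed 2-fold.

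Proteins around the U2 and U5 particles were mixed, with 8 that fell (42.1%, near the share of well-expressed protein-coding genes) and 2 that rose of 19, and a median of -0.08. PRPF19, a ubiquitin ligase of the spliceosome, had 5706 and 5804 in shBDH1, against 8608 and 8550 in shcontrol, at -0.58 (limma adjusted p = 4.4e-12). SF3A1 fell by 0.56 and SF3A2 by 0.24, while SF3B3 rose by 0.31. Of 18 genes in the G-patch list, which holds the member DHX15 itself, 6 fell and 2 rose, with RBM17 at -0.51, GPKOW, the partner of DHX16, at -0.45 and SON at 0.25. The SMN and tRNA ligase list had 2 that fell and 1 that rose of 14. RTCB, the ligase that works with DDX1, was at -0.42, GEMIN8 at -0.58 and FAM98A at 0.40.

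Around DDX6 the directions were split, with 6 that rose and 5 that fell of 20 genes for decapping, CCR4-NOT and P-bodies (median -0.01). DCP2, the decapping enzyme, had 6184 and 5356 in shBDH1, against 3974 and 4062 in shcontrol, at 0.52 (limma adjusted p = 7.5e-09), while CNOT10 was at -0.29. CNOT6L and CNOT6, deadenylases, rose by 0.30 and 0.23. Of 9 genes for eIF4A and its partners, 4 fell and 2 rose. The eIF4A paralogs EIF4A2 (-0.10, limma adjusted p = 0.038) and EIF4A3 (0.11, limma adjusted p = 0.078) were named after their values were seen. EIF4B, which stimulates the eIF4A helicase, fell by 0.49, PDCD4, which inhibits it, by 0.55 and EIF4G1 by 0.32, and EIF4G3 rose by 0.36.

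Among 19 other helicases tested that are not named DDX or DHX, and leaving out EIF4A2 and EIF4A3, 5 rose and 3 fell. The 3 that fell were UPF1, described above, and SUPV3L1 and MTREX, at -0.26 and -0.20, which were named after their values were seen. DICER1, the microRNA-processing enzyme with a helicase domain, had 8051 and 7663 in shBDH1, against 4750 and 4423 in shcontrol, at 0.78 (limma adjusted p = 7.3e-14). The antiviral helicase MOV10 rose by 0.47 on the log2 scale (limma adjusted p = 3.4e-08). This list goes by name and not by helicase family, and the difference between its counts and those of the DDX and DHX members was not tested. In the list around RIG-I-like receptors, 5 rose and 2 fell of 11. TMEM173, or STING, had 1451 and 1501 in shBDH1, against 391 and 501 in shcontrol, at 1.74 (limma adjusted p = 5.9e-14), ZC3HAV1 was at 0.69 and TBK1 at 0.82, whereas TRIM25, a ubiquitin ligase of this pathway, was at -0.59.

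**Figure D4:**
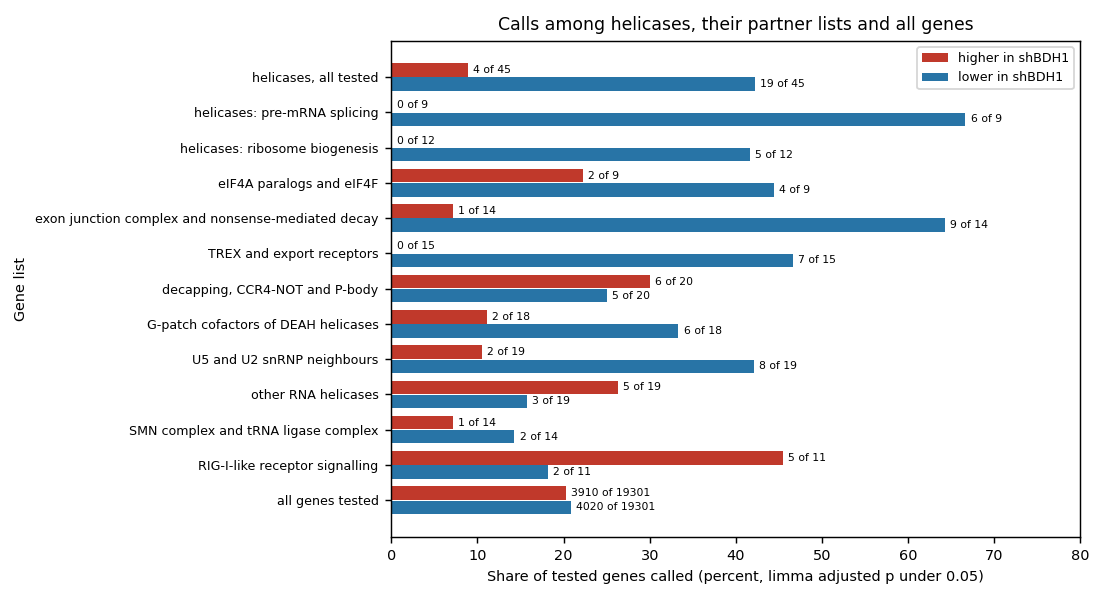
Share of tested genes called higher or lower in shBDH1 (percent, limma adjusted p under 0.05) for all helicases tested, for those of splicing and ribosome biogenesis, for each partner list and for all genes tested, with the counts beside the bars. The bars for genes called lower are longest for the splicing helicases (6 of 9) and for the exon junction and decay list (9 of 14), while the receptor list has the longest bar for genes called higher (5 of 11).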

How the data were processed

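The deposited table gives 1 normalized signal per gene and library. Its name says raw counts, but the values are not whole: they are gene read counts that the authors divided by 1 size factor per library, as found from the values. Dividing by each library's step gave whole reads for 100.0% of values, within 0.01 reads. For the second shBDH1 library the step is close to 1 (size factor 0.9944), so the recovery there rests on the decimals of the values; the recovered reads serve only the alternatives. Per the submitters' processing notes, the build was hg38 and the tools were FastQC 0.11.9 and HISAT2 2.2.1. The counter, annotation release and strand setting: not given in the sources used here. No value column was left unused.

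The test was limma (3.58.1, R 4.3.3) with an intensity trend on log2(value + 1) for genes at a mean of at least 10, adjusted over all 19301 by the Benjamini-Hochberg method at 0.05. Each gene's variance was drawn mostly from the trend over all genes, with 25.8 prior against 2 residual degrees of freedom. Adding 1 before taking logs makes the fold changes of low genes too small. Alternatives used edgeR 4.0.16, DESeq2 1.42.0 and limma-voom on the recovered reads, other pseudocounts and filters, a replicate block, and fits without each library in turn. The fit was tested on simulated data before use. Positions, lengths and overlaps are from GENCODE 29 (GRCh38), which placed all 47 members. The recovered reads of the libraries differed beyond sampling noise, with a chi-square per degree of freedom of 5.15 within shBDH1, 3.7 within shcontrol and at least 46.3 across groups, so none were merged as duplicates. That does not show separate cultures.

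The members and lists were chosen with earlier results of these data known. All members are named. Values per library are given for the 12 largest falls and the rises that passed, for the 2 highest members of each role and for paralog pairs, and up to 4 genes of smallest p are named from each partner list. A gene that this rule would name is not reported here.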

Additional observations from a re-analysis of the deposited data

How the results depend on the processing

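The count of helicases that fell was 19 in the main fit and 14 to 22 over 14 alternatives, always within 1.5 times of it, and that of all genes called was 7930 in the main fit. The 4 helicases called higher became 2 without shBDH1 replicate 2 or shcontrol replicate 1, so the range when each library was left out was 2 to 4; the cause was not tested. With the replicate block, 4 rose and 22 fell (DDX55, DHX37 and DHX58 added), and over all genes tested 4108 rose and 4217 fell. The numbers were not taken to pair the libraries, since the labels name no shared batch and the deviations of same-numbered libraries correlated at only 0.0352 over 13922 genes. Of the 23 calls, 14 held in every alternative run (13 lower, and DDX3X higher), and 17 of the 22 members without a call had none in any. No called member changed sign. DESeq2 gave 3 higher and 15 lower, losing DDX5, DDX25, DDX41, DDX59 and DDX60L, and over all genes tested 3325 higher and 3205 lower. With 2 libraries per group, the median SE among the members tested was 0.06 on the log2 scale, and members without a call ran from -0.19 to 0.19, so changes of that size can be missed.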
